A study of Rattus norvegicus with 138 samples.

Results

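The genes for 9 acetylcholine receptor proteins were followed in 3 cardiovascular nuclei of the rat medulla: the nicotinic subunit genes Chrna3, Chrna4, Chrna5, Chrna7, Chrnb2 and Chrnb4, and the muscarinic receptor genes Chrm1, Chrm2 and Chrm3. They were taken by gene symbol and are 9 of the 32883 genes in the count tables. Female spontaneously hypertensive rats (SHR, SHR/NHsd) and their normotensive reference strain (WKY, WKY/NHsd), bred by the same supplier and housed singly without treatment, were killed at 5 ages, namely 8 wk, 10 wk, 12 wk, 16 wk and 24 wk, which span the onset and the chronic stage of high blood pressure in the SHR. Group sizes were 5, 4, 3, 3 and 3 rats for WKY and 5, 5, 6, 6 and 6 rats for SHR in age order. Each of the 46 rats gave 3 libraries, 1 per nucleus: the solitary tract nucleus (NTS), the caudal part of the ventrolateral medulla (CVLM) and its rostral part (RVLM). The strains differ at many loci across the genome, and a tissue punch holds all the cells of the nucleus and some of its neighbours.

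Acetylcholine acts in the brainstem on nicotinic receptors, which are cation channels built from combinations of alpha and beta subunits, and on muscarinic receptors, which signal through G proteins. The α3, α5 and β4 subunits form the receptor best known from autonomic ganglia, α4 with β2 forms the most widespread receptor of the brain, and α7 forms a calcium-permeable channel from copies of itself. M1 and M3 receptors couple to Gq and phospholipase C, whereas M2 couples to Gi and commonly damps transmitter release. The NTS receives the baroreceptor afferents, the CVLM sends inhibition to the RVLM, and the RVLM drives sympathetic outflow, and muscarinic agonists delivered to the RVLM are known to raise arterial pressure in rats.

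Chrna5, Chrna3 and Chrnb4 lie beside each other in the rat genome, with Chrna5 on the opposite strand to the others. Their upstream windows are shown because Chrna3 and Chrnb4 had the same order of nuclei and were the pair of receptor genes whose levels ran most closely together in the NTS. Each window holds the 250 bases before the annotated start in RefSeq's GRCr8 assembly, written 5′ to 3′ on the gene's own strand: chr8:64265629-64265878 on the plus strand for Chrna5, chr8:64311252-64311501 on the minus strand for Chrna3 and chr8:64333110-64333359 on the minus strand for Chrnb4. Capitals mark matches, on either strand, to the GC box letters GGGCGG and to the E box letters CACGTG.
Chrna5: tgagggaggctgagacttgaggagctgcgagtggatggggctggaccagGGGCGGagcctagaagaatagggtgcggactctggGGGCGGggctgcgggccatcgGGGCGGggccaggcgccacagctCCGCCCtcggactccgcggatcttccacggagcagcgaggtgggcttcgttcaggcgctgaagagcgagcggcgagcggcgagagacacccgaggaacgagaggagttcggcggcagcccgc
Chrna3: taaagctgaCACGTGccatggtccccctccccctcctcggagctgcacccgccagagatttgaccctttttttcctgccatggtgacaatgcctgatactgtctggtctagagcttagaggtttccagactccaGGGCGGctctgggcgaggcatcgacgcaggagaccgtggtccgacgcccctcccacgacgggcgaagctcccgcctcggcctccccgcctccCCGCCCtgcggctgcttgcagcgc
Chrnb4: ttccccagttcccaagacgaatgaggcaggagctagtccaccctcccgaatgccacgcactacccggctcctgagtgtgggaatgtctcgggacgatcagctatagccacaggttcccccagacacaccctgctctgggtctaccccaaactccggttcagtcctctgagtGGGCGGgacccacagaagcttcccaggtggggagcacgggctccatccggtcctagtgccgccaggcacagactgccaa
The GC box letters occur 4 times in the Chrna5 window, 2 times in that of Chrna3 and 1 time in that of Chrnb4. They were found in the windows of 8 of the 9 receptor genes and in 30.5% of the 33469 windows of this length in the assembly's table. CACGTG was found in the Chrna3 window and in that of Chrna7 (2 of 9, against 5.59% of all windows). The letters TATAAA, TGACGTCA, TTCAGCACC and CAGCTG, searched on both strands as well, were in none of the 9 windows and in 12.9%, 1.59%, 0.305% and 12% of all windows. The count tables were made on the older rn6 assembly, so these positions belong to the windows alone.

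Library totals ran from 5904581 to 17889417 estimated counts. Levels are given as CPM, gene counts scaled to a common library size after normalization by trimmed means of M values. They compare libraries for 1 gene and not genes with each other, since transcript lengths were not used. The library of WKY replicate 3 at 8 wk in the RVLM stood apart, with a median correlation to its region's other libraries of 0.906 against a median of 0.956 over all RVLM libraries. Choline acetyltransferase (Chat) and the other motor neuron markers checked the punches. Their summed level was 680 to 2630 CPM in RVLM punches, 160 to 714 CPM in NTS punches and 60.9 to 261 CPM in CVLM punches, with Mnx1 at 0 in the median library of each region. Dbh, the enzyme that makes noradrenaline, had medians in WKY and SHR of 77.6 and 59.9 CPM for NTS, 86.4 and 83.2 CPM for CVLM and 7.75 and 10.5 CPM for RVLM, so the RVLM punches, a region known for its adrenergic neurons, held the lowest Dbh medians and the highest sums of motor neuron genes. Library names end in 1 or 2, whose meaning is not given in the sources used here. All 10 wk libraries carry the number 2, as do those of WKY replicates 3, 4 and 5 at 8 wk and of SHR replicate 6 at 12 and 24 wk, which makes 14 of the 46 libraries in each region.

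Most of the receptor genes differed between nuclei. Of 24 differences between pairs of nuclei (8 genes, 3 pairs), 21 passed an adjusted p of 0.05, 14 higher and 7 lower in the first-named nucleus, in edgeR's quasi-likelihood test with the rat as a block and Benjamini-Hochberg adjustment over 14043 genes. Both Chrna5 differences against the RVLM are among the 21, and Chrna5 was kept in that fit only through the NTS and the CVLM, so these are a description. The share called among all genes was 64.2% over the 3 pairs, with 72.7% for NTS against RVLM, 65.9% for NTS against CVLM and 54.0% for CVLM against RVLM. The genes fell into groups by their nucleus: Chrna3, Chrna5 and Chrnb4 were highest in the NTS, Chrna4 in the CVLM and Chrm2 in the RVLM. In bulk tissue, fewer cells that use a gene and less RNA of it per cell cannot be told apart.

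Chrna3, the α3 subunit gene (ENSRNOG00000013829), ran from 10.6 to 37.0 CPM in the NTS, with a median of 23.6 CPM over 46 libraries. In the CVLM it ran from 2.76 to 10.95 CPM with a median of 5.52 CPM, and in the RVLM from 5.92 to 19.0 CPM with a median of 10.4 CPM. The lowest NTS library, at 10.6 CPM, lay below the highest CVLM library, at 10.95 CPM, and the other libraries of these nuclei did not overlap. The level in the NTS was 4.11-fold that in the CVLM (log2 difference 2.04, SE 0.088, adjusted p = 1.2e-34, edgeR) and 2.22-fold that in the RVLM (log2 difference 1.15, SE 0.083, adjusted p = 1.2e-21, edgeR).

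Chrnb4, the β4 subunit gene (ENSRNOG00000014427), followed the same order. Its median was 6.05 CPM in the NTS (range 1.76 to 11.2), 1.08 CPM in the CVLM (0.237 to 3.53) and 1.73 CPM in the RVLM (0.279 to 4.65). The NTS level was 5.61-fold that in the CVLM (log2 difference 2.49, SE 0.14, adjusted p = 4.8e-28, edgeR) and 3.67-fold that in the RVLM (log2 difference 1.88, SE 0.13, adjusted p = 1.1e-22, edgeR). The difference between CVLM and RVLM was smaller, at −0.61 on the log2 scale (SE 0.15, adjusted p = 2.8e-04, edgeR).

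Chrna5, the accessory α5 subunit gene (ENSRNOG00000013610), was also highest in the NTS but took another order below it. Its median was 2.36 CPM in the NTS (range 0.223 to 10.8), 1.28 CPM in the CVLM (0.0874 to 6.10) and 0.483 CPM in the RVLM (0 to 1.99). The libraries of all 3 nuclei overlapped. The NTS level was 1.87-fold that in the CVLM (log2 difference 0.90, SE 0.19, adjusted p = 2.4e-05, edgeR). Against the RVLM it was 4.97-fold (log2 difference 2.31, SE 0.21), given with no test because Chrna5 fell below the filter on low values in the RVLM and entered the fit through the nuclei where it was higher.

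**Figure D1:**
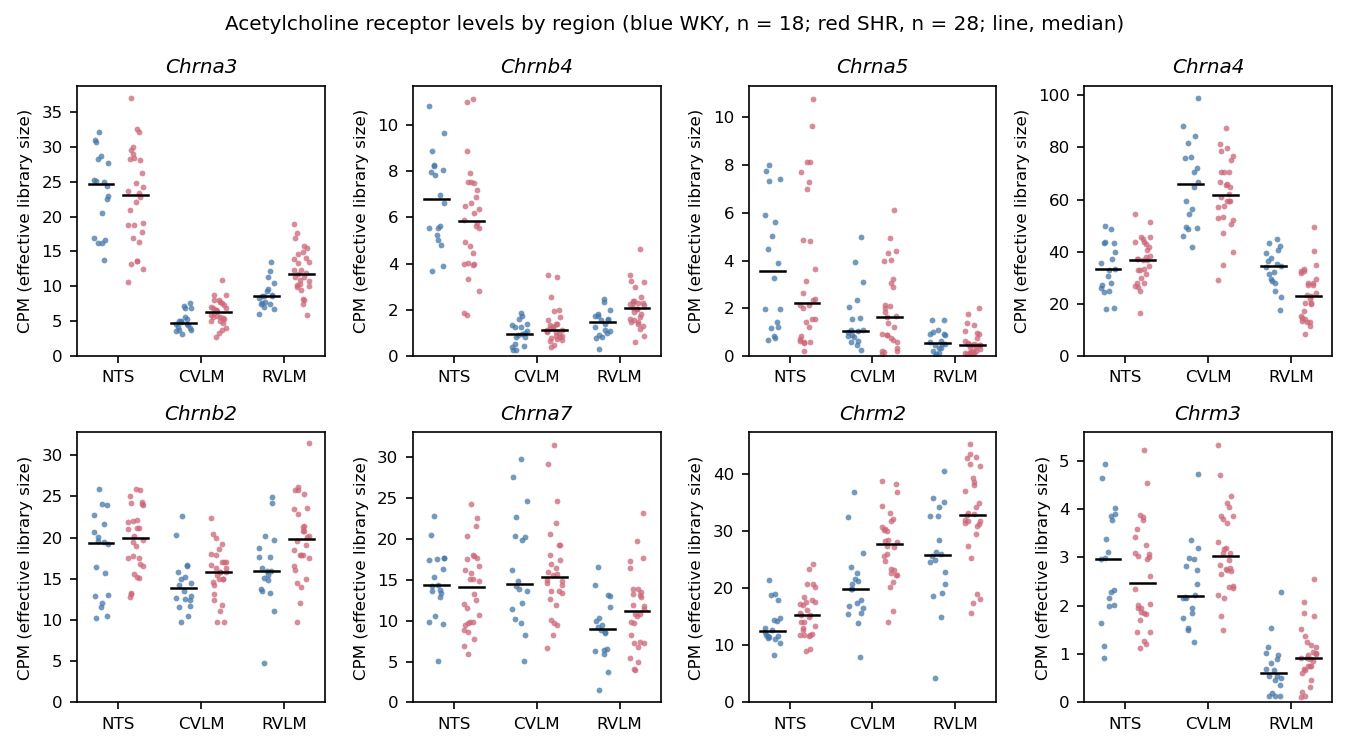
Level of each receptor gene in each library (y axis, CPM) for the NTS, CVLM and RVLM (x axis), with WKY and SHR libraries as separate points and a line at the median of each strain, for 8 of the 9 genes. Chrna3, Chrna5 and Chrnb4 have their highest medians in the NTS, Chrna4 in the CVLM and Chrm2 in the RVLM. Chrm1, which held at most 6 counts in any library, is not drawn.

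Chrna4, the α4 subunit gene (ENSRNOG00000011202), was highest in the CVLM. There it ran from 29.1 to 99.0 CPM with a median of 63.6 CPM, against a median of 36.2 CPM in the NTS (16.3 to 54.3) and 28 CPM in the RVLM (8.51 to 49.5). The CVLM level was 2.33-fold that in the RVLM (log2 difference 1.22, SE 0.072, adjusted p = 3.1e-26, edgeR) and 1.87-fold that in the NTS (NTS minus CVLM −0.91 on the log2 scale, SE 0.070, adjusted p = 1.1e-19, edgeR). Its usual partner Chrnb2, the β2 subunit gene (ENSRNOG00000020778), was nearly level across the nuclei. The Chrnb2 medians were 19.6 CPM in the NTS (10.3 to 25.9), 15.1 CPM in the CVLM (9.73 to 22.6) and 17.9 CPM in the RVLM (4.75 to 31.4). The CVLM was lowest for Chrnb2, by 0.32 on the log2 scale against the NTS (SE 0.061, adjusted p = 4.9e-06, edgeR) and by 0.26 against the RVLM (CVLM minus RVLM −0.26, SE 0.061, adjusted p = 2.1e-04, edgeR). NTS and RVLM differed by 0.058 (SE 0.060, adjusted p = 0.40, edgeR), which the spread between libraries covers.

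Chrna7, the α7 subunit gene (ENSRNOG00000010853), was lower in the RVLM than in the other nuclei. Its median was 14.3 CPM in the NTS (5.10 to 24.2), 14.96 CPM in the CVLM (5.09 to 31.5) and 10.2 CPM in the RVLM (1.54 to 23.2). The CVLM exceeded the RVLM by 0.63 on the log2 scale (SE 0.093, adjusted p = 1.2e-08, edgeR) and the NTS exceeded it by 0.50 (SE 0.093, adjusted p = 1.9e-06, edgeR), whereas NTS minus CVLM was −0.13 (SE 0.091, adjusted p = 0.20, edgeR).

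The muscarinic genes went opposite ways. Chrm2, the M2 receptor gene (ENSRNOG00000046972), rose from the NTS, with a median of 14.1 CPM (8.24 to 24.3), through the CVLM at 23.6 CPM (7.96 to 38.7) to the RVLM at 31.8 CPM (4.19 to 45.2). NTS minus RVLM was −0.97 on the log2 scale (SE 0.082, adjusted p = 3.7e-18, edgeR) and CVLM minus RVLM was −0.30 (SE 0.080, adjusted p = 9.1e-04, edgeR). The lowest RVLM value belongs to the library that stood apart. Chrm3, the M3 receptor gene (ENSRNOG00000049410), was at a median of 2.78 CPM in the NTS (0.921 to 5.22), 2.77 CPM in the CVLM (1.25 to 5.32) and 0.836 CPM in the RVLM (0.106 to 2.55). The NTS level was 3.45-fold that of the RVLM (log2 difference 1.79, SE 0.15, adjusted p = 5.3e-19, edgeR) whereas NTS minus CVLM was −0.055 (log2 scale, SE 0.13, adjusted p = 0.72, edgeR).

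Chrm1, the M1 receptor gene (ENSRNOG00000018385) and the main muscarinic receptor of the forebrain, was close to absent from the counts. No library held more than 6 counts of it. It was at 0 in 26 of 46 NTS libraries and in 34 of 46 libraries of both the CVLM and the RVLM, and its counts over all 46 libraries came to 35 for NTS, 17 for CVLM and 16 for RVLM. It did not pass the filter on low values in any nucleus and was not tested. Chrna5 did not pass it in the RVLM, where 325 counts were spread over 46 libraries. The strain and age tests therefore cover 8 of the 9 genes in the NTS and the CVLM and 7 of 9 in the RVLM.

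The differences between nuclei were seen in both strains. With the strains taken apart, 40 of 48 differences passed the test, against 21 of 24 for the strains together, again counting Chrna5 against the RVLM. The share called among all genes was 62.2% in WKY and 64.4% in SHR for NTS against RVLM, 52.5% and 55.7% for NTS against CVLM, and 39.0% and 44.8% for CVLM against RVLM. Chrna4 was the gene whose difference between nuclei changed with the strain: in WKY its level in the NTS minus that in the RVLM was −0.054 on the log2 scale (SE 0.11, adjusted p = 0.70, edgeR), and in SHR it was 0.67 (SE 0.088, adjusted p = 3.0e-10, edgeR).

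**Figure D2:**
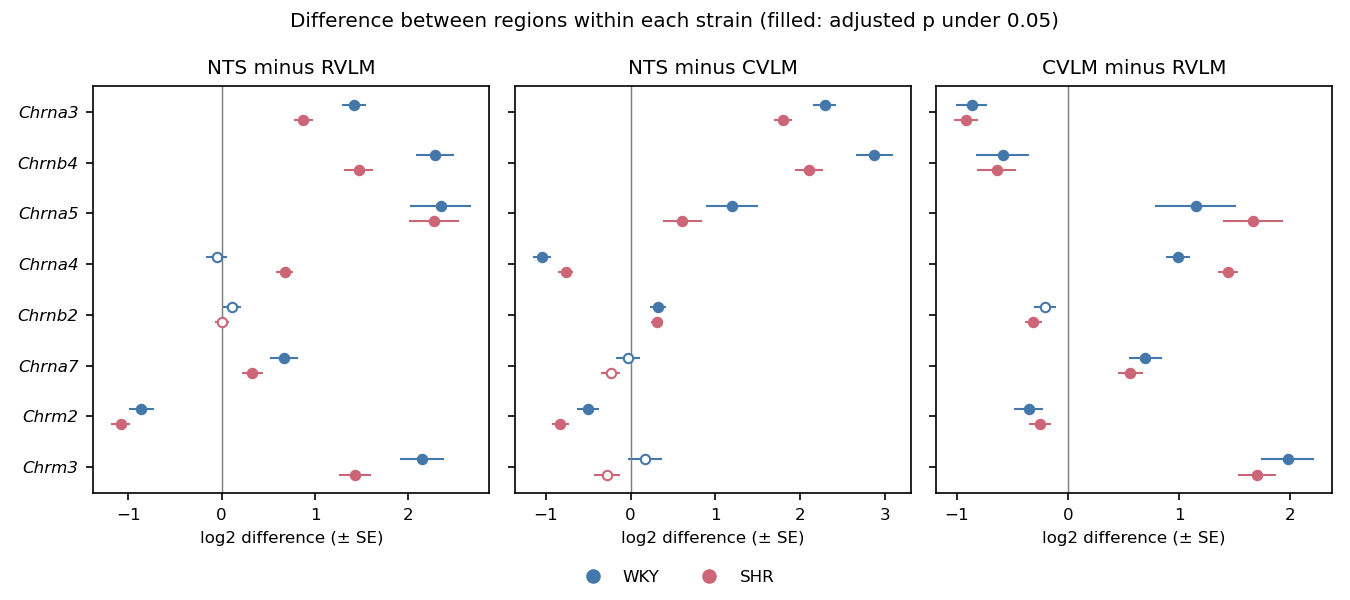
Log2 differences in level between pairs of nuclei (x axis, points with bars of 1 standard error) for 8 receptor genes (y axis). WKY and SHR are shown apart, with filled points where the adjusted p was under 0.05. The points of Chrna5 against the RVLM are a description only, since Chrna5 entered the fit through the other nuclei. Chrna3, Chrna5 and Chrnb4 lie on the NTS side of both NTS pairs, and Chrna4 is the gene whose strains part in NTS minus RVLM, at −0.054 for WKY and 0.67 for SHR.

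That gap was tested directly, as the strain effect in one nucleus minus the strain effect in another. It reached 0.73 on the log2 scale for Chrna4 between NTS and RVLM (SE 0.14, adjusted p = 6.2e-04, edgeR), the 1 call among 24 such tests, where the share called among all genes was 1.82% for this pair and 0.862% over the 3 pairs. Chrnb4 and Chrna3 had values in the other direction for the same pair, −0.82 (SE 0.26, adjusted p = 0.087) and −0.54 (SE 0.165, adjusted p = 0.068), and neither passed in edgeR's test. Leaving out WKY replicate 1 of each age brought Chrna3 past the threshold, at −0.84 (adjusted p = 0.0016, edgeR). At single ages none of 120 such tests passed in edgeR, 18 had an unadjusted p under 0.05, and the share called among all genes was 0.131%; no other tool was run on them.

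The strain comparison asks whether receptor genes differed between SHR and WKY, with the prehypertensive SHR of 8 wk included. Averaged over the 5 ages with equal weight, 4 of 23 differences passed the test, 3 higher and 1 lower in SHR, and 9 had an unadjusted p under 0.05. The share called among all genes was 11.4%, with 11.2% for NTS, 12.3% for CVLM and 10.8% for RVLM, so 4 of 23 is not far from what the whole table gave. The called genes were Chrna3, Chrnb4 and Chrna4 in the RVLM and Chrm2 in the CVLM. In the NTS 0 of 8 passed in edgeR, 0 had an unadjusted p under 0.05, and DESeq2 called 0.

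Chrna3 was higher in the RVLM of SHR. The 18 WKY libraries ran from 6.08 to 13.5 CPM with a median of 8.59 CPM, and the 28 SHR libraries from 5.92 to 19.0 CPM with a median of 11.8 CPM. The strains overlapped over most of their range, and the SHR median was the higher at each age, from 10.8 against 8.34 CPM at 8 wk to 14.3 against 8.60 CPM at 24 wk. At 24 wk the WKY libraries read 11.4, 8.60 and 8.60 CPM and the SHR libraries ran from 11.4 to 19.0 CPM. The mean difference was 0.42 on the log2 scale (SE 0.10, adjusted p = 0.0040, edgeR), and it was above 0 at 5 of 5 ages. The call was lost without WKY replicate 2 (adjusted p = 0.059) or WKY replicate 3 (adjusted p = 0.076).

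Chrnb4 moved the same way in the RVLM, at low counts. WKY libraries ran from 0.279 to 2.47 CPM with a median of 1.47 CPM, and SHR libraries from 0.610 to 4.65 CPM with a median of 2.07 CPM. The strains parted most at 16 wk, when the WKY libraries read 1.11, 0.912 and 1.99 CPM and the SHR libraries ran from 2.05 to 3.25 CPM with a median of 2.43 CPM, without overlap. The share of all genes whose strains did not overlap in that comparison was 4.15%, and the difference at 16 wk alone did not pass (0.94 on the log2 scale, adjusted p = 0.48, edgeR). The mean difference over ages was 0.48 (SE 0.16, adjusted p = 0.045, edgeR), above 0 at 4 of 5 ages. This call was lost in 8 of 11 fits that left out a replicate number of a strain, all but SHR replicate 5 and WKY replicates 3 and 5, where adjusted p reached 0.15. It was also lost when the 8, 10, 16 or 24 wk difference was left out of the mean in the same fit, with an adjusted p of 0.23 without 16 wk.

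Chrna4 was lower in the RVLM of SHR. WKY libraries ran from 17.5 to 44.9 CPM with a median of 34.4 CPM, and SHR libraries from 8.51 to 49.5 CPM with a median of 23.1 CPM. At 8 wk the WKY libraries read 34.2, 35.2, 29.6, 34.7 and 28.03 CPM, and the SHR libraries 15.3, 19.8, 8.51, 29.3 and 21.9 CPM, so that 1 SHR library lay inside the WKY range. The mean difference was −0.49 on the log2 scale (SE 0.15, adjusted p = 0.027, edgeR) and below 0 at 5 of 5 ages. It was lost in 4 of 11 fits without a replicate number of a strain, namely SHR replicates 1 and 3 and WKY replicates 1 and 2, with an adjusted p of 0.20 without WKY replicate 1. It was also lost when the 8, 10 or 12 wk difference was left out of the mean in the same fit, with an adjusted p of 0.16 without 8 wk. In the NTS the mean difference of Chrna4 was 0.19 (SE 0.11, adjusted p = 0.37, edgeR), and in the CVLM −0.098 (SE 0.094, adjusted p = 0.62, edgeR).

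Chrm2 was higher in the CVLM of SHR. The WKY libraries ran from 7.96 to 36.9 CPM with a median of 19.8 CPM, and the SHR libraries from 14.0 to 38.7 CPM with a median of 27.7 CPM. At 8 wk the WKY libraries read 32.4, 13.9, 20.8, 16.6 and 22.7 CPM and the SHR libraries 38.7, 32.2, 27.4, 36.9 and 31.8 CPM, with 1 WKY library among the SHR values. The mean difference was 0.43 on the log2 scale (SE 0.12, adjusted p = 0.0094, edgeR), above 0 at 5 of 5 ages and called in all 11 fits without a replicate number of a strain. The call was lost when the 8 wk difference was left out of the mean (0.37, adjusted p = 0.066, same fit). It was also lost when libraries numbered 2 at ages other than 10 wk were dropped (adjusted p = 0.051). In the RVLM the Chrm2 difference was 0.37 (SE 0.14, adjusted p = 0.088, edgeR), and without the library that stood apart, which read 4.19 CPM, it was 0.31 (adjusted p = 0.037, edgeR).

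Most of the tested receptor genes had positive strain differences in the ventrolateral nuclei. In the CVLM 33 of 40 differences at single ages were above 0 (82.5%), and the median was 0.26 on the log2 scale. In the RVLM 27 of 35 were above 0 (77.1%), with a median of 0.32, and in the NTS 22 of 40 (55%), with a median of 0.039. Over all genes 50.0%, 52.0% and 51.0% of such differences were above 0 in the CVLM, RVLM and NTS. Ages share no rats, but genes of 1 library share that library, so these shares are descriptions. Beside them, the red cell genes Hbb and Alas2 were lower in SHR in the CVLM (−0.89 and −0.80 on the log2 scale) and in the RVLM (−0.71 and −0.54), and the myelin gene Mobp was lower in SHR in all 3 nuclei (NTS −0.72, CVLM −0.99, RVLM −0.94); their part in the receptor differences was not tested. The motor neuron markers overlapped between strains in the RVLM, where their sum ran from 719 to 2630 CPM in WKY (median 1848) and from 680 to 2593 CPM in SHR (median 1715). Dbh in the RVLM ran from 1.70 to 18.7 CPM in WKY (median 7.75) and from 3.86 to 62.1 CPM in SHR (median 10.5), and its part was not tested either.

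**Figure D3:**
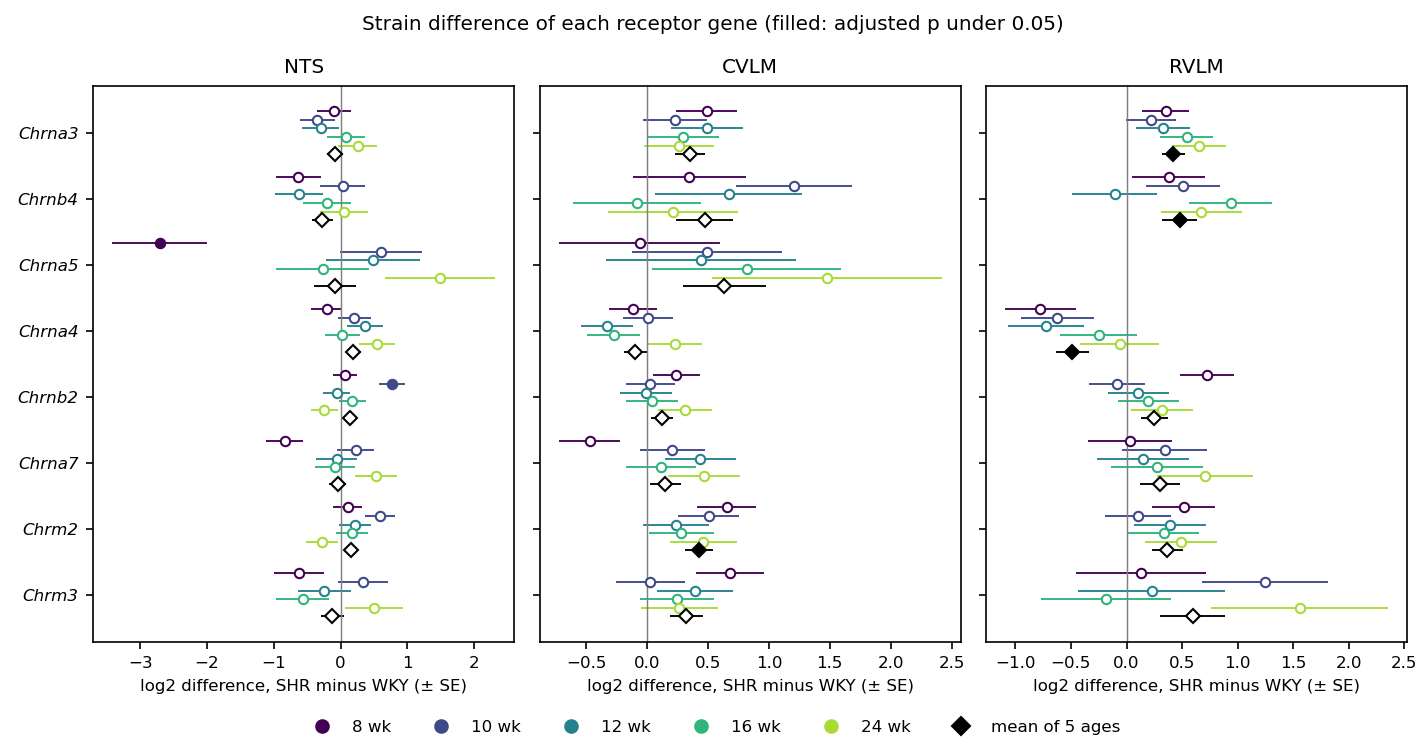
Strain difference, SHR minus WKY on the log2 scale (x axis), for the receptor genes tested in each nucleus (y axis, 1 panel per nucleus), with a coloured circle for each age in weeks, a diamond for the mean of the 5 ages, bars of 1 standard error and filled symbols where the adjusted p was under 0.05. For CVLM 33 of 40 circles and for RVLM 27 of 35 lie above 0, and Chrna5 at 8 wk in the NTS is the lowest point of all, at −2.71.

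Taken age by age, 2 of 115 strain differences passed the test, and 15 had an unadjusted p under 0.05. The share called among all genes was 3.87% over all ages and nuclei. Both calls were in the NTS: Chrna5 at 8 wk and Chrnb2 at 10 wk, where 5.79% and 4.44% of all genes were called. In the CVLM, with 4.57% called among all genes, 0 of 40 passed in edgeR, with 3 at an unadjusted p under 0.05 and 0 in DESeq2. In the RVLM, with 3.53% called among all genes, 0 of 35 passed, with 7 at an unadjusted p under 0.05 and 1 in DESeq2.

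Chrna5 in the NTS at 8 wk read 1.96, 5.63, 8.02, 7.40 and 3.28 CPM in WKY and 0.722, 0.569, 0.223, 1.53 and 1.202 CPM in SHR. The strains did not overlap, as for 4.02% of all genes in that comparison. The SHR values rest on 2 to 11 counts a library. The difference was −2.71 on the log2 scale (SE 0.71, adjusted p = 0.016, edgeR). WKY replicates 3, 4 and 5 carry the library number 2 and all SHR libraries at 8 wk the number 1. With the library number as a term the difference was −2.05 (adjusted p = 0.20, edgeR). Without the number-2 libraries outside 10 wk it was −2.20 (adjusted p = 0.24, edgeR), with only WKY replicates 1 and 2 left at 8 wk. The direction was kept and the call was lost. Strain and library number can be separated at 8 wk only through WKY replicates 1 and 2, which share the number 1 with SHR, and these are few. The call was also lost without SHR replicate 2 (adjusted p = 0.056) or WKY replicate 3 (adjusted p = 0.058). The motor neuron markers, 1 of 6 of them at 0 in the median SHR library, overlapped between the strains. Their sum ran from 182 to 238 CPM in the same SHR libraries and from 196 to 562 CPM in WKY. Their part in the result was not tested.

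At 10 wk the Chrna5 values in the NTS were 4.46, 3.88, 5.02 and 7.76 CPM in WKY and 2.64, 10.8, 8.11, 7.73 and 9.66 CPM in SHR. The strains overlapped, all these libraries carry the number 2, and all SHR values lay above those of SHR at 8 wk. The strain effect on Chrna5 thus took both signs over age in the NTS, from −2.71 to 1.49 on the log2 scale. The test of a strain effect that changes with age had an unadjusted p of 0.0028 for Chrna5, 0.010 for Chrnb2 and 0.026 for Chrna7 in the NTS, with adjusted p of 0.38, 0.38 and 0.39 in edgeR. Across all nuclei 0 of 23 such tests passed in edgeR, 3 had an unadjusted p under 0.05, and DESeq2 called 0 of the 16 to which it gave an adjusted p. The share called among all genes was 0.0148%.

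Chrnb2 in the NTS at 10 wk read 10.3, 10.5, 11.5 and 12.96 CPM in WKY and 13.3, 24.3, 25.9, 12.8 and 16.8 CPM in SHR. The lowest SHR library fell just below the highest WKY library. The difference was 0.77 on the log2 scale (SE 0.20, adjusted p = 0.013, edgeR). All 9 libraries carry the number 2, so the number does not separate the strains here. The call was lost when the 10 wk rats were fitted alone (adjusted p = 0.098) and in 5 of 11 fits without a replicate number of a strain, namely SHR replicates 2 and 3 and WKY replicates 1, 2 and 3, where adjusted p reached 0.12.

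In 4 other strain comparisons of the 115, the groups did not overlap and the difference did not pass. Over all genes, the share without overlap ran from 4.02% to 11.7% across nuclei and ages. Chrnb4 in the NTS at 8 wk ran from 5.53 to 8.29 CPM in WKY and from 3.97 to 5.52 CPM in SHR (−0.63 on the log2 scale, adjusted p = 0.24, edgeR). There 4.02% of all genes had no overlap. Chrm2 in the NTS at 10 wk ran from 11.3 to 12.7 CPM in WKY and from 12.98 to 20.7 CPM in SHR (0.59, adjusted p = 0.13, edgeR), where 8.27% of all genes had no overlap. Chrna4 in the NTS at 24 wk ran from 18.4 to 25.0 CPM in WKY and from 25.1 to 43.9 CPM in SHR (0.55, adjusted p = 0.38, edgeR), where 6.18% of all genes had none. The other was Chrnb4 in the RVLM at 16 wk, given above.

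**Figure D4:**
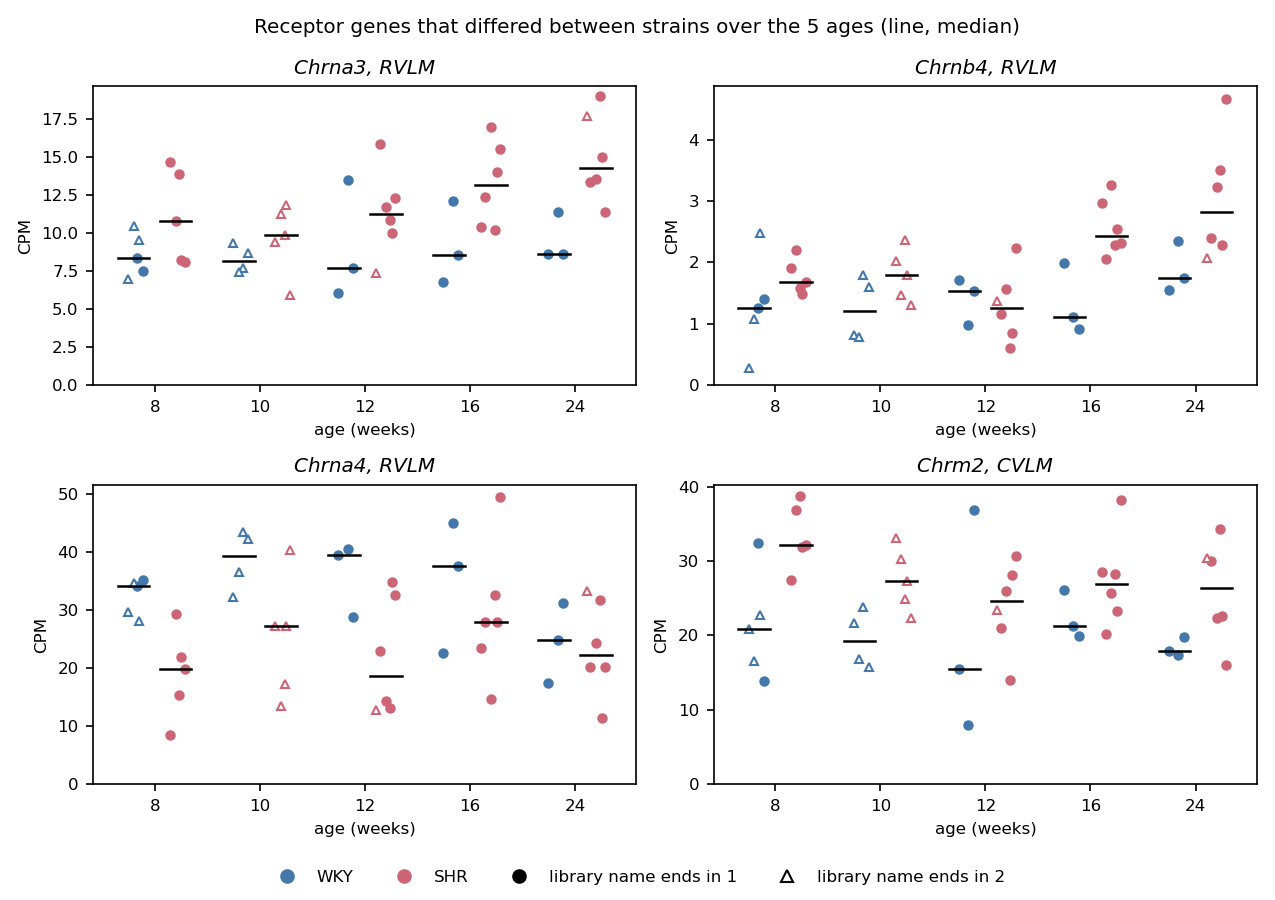
CPM (y axis) of the 4 gene and nucleus pairs with a called mean strain difference, in each library by age in weeks (x axis), WKY in blue and SHR in red, with filled circles for library number 1, open triangles for number 2 and a line at each group's median. In the RVLM the SHR median of Chrna3 is the higher at each age, up to 14.3 against 8.60 CPM at 24 wk, with overlapping libraries.

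Age effects within a strain were called in 6 of 46 tests, against 15.7% among all genes. Chrna7 made up 3 of the 6: in the CVLM of WKY (adjusted p = 0.0042), in the CVLM of SHR (adjusted p = 0.041) and in the NTS of SHR (adjusted p = 0.030), all by edgeR. The others were Chrna5 in the NTS of SHR (adjusted p = 0.0098), Chrnb2 in the NTS of WKY (adjusted p = 0.017) and Chrnb4 in the RVLM of SHR (adjusted p = 0.024), also by edgeR. In 11 fits that each left out a replicate number of a strain, Chrna7 in the CVLM of WKY kept the call. Chrna7 in the CVLM of SHR lost it in 5, without SHR replicates 3, 4 or 5 or WKY replicates 2 or 3, with adjusted p up to 0.31 in edgeR. Chrnb4 in the RVLM of SHR lost it in 5, without SHR replicates 1 to 5, with adjusted p up to 0.10 in edgeR. Chrna7 in the NTS of SHR lost it in 3, without SHR replicates 2, 3 or 5, with adjusted p up to 0.21 in edgeR. Chrna5 in the NTS of SHR lost it without SHR replicates 2 or 5 (up to 0.085) and Chrnb2 in the NTS of WKY without WKY replicates 1 or 3 (up to 0.12).

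Chrna7 in the CVLM of WKY had medians of 22.7, 20.3, 11.4, 13.6 and 9.66 CPM from 8 to 24 wk. The 24 wk libraries, at 8.30 to 10.2 CPM, lay below all libraries of 8 and 10 wk, which began at 13.9 CPM. In the CVLM of SHR its medians were 14.4, 20.6, 15.2, 14.6 and 13.4 CPM, highest at 10 wk. In the NTS of SHR they were 7.74, 21.6, 11.4, 15.5 and 14.2 CPM, again highest at 10 wk.

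Chrna5 in the NTS of SHR showed the widest swing, with medians of 0.722, 8.11, 2.88, 2.17 and 2.26 CPM. Chrnb2 in the NTS of WKY dipped at 10 wk, with medians of 19.4, 11, 20.7, 19.6 and 24.0 CPM, and its 10 wk libraries, up to 12.96 CPM, overlapped only with the 8 wk libraries, which began at 12.1 CPM. Chrnb4 in the RVLM of SHR had medians of 1.67, 1.80, 1.26, 2.43 and 2.81 CPM, lowest at 12 wk and higher at 16 and 24 wk.

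**Figure D5:**
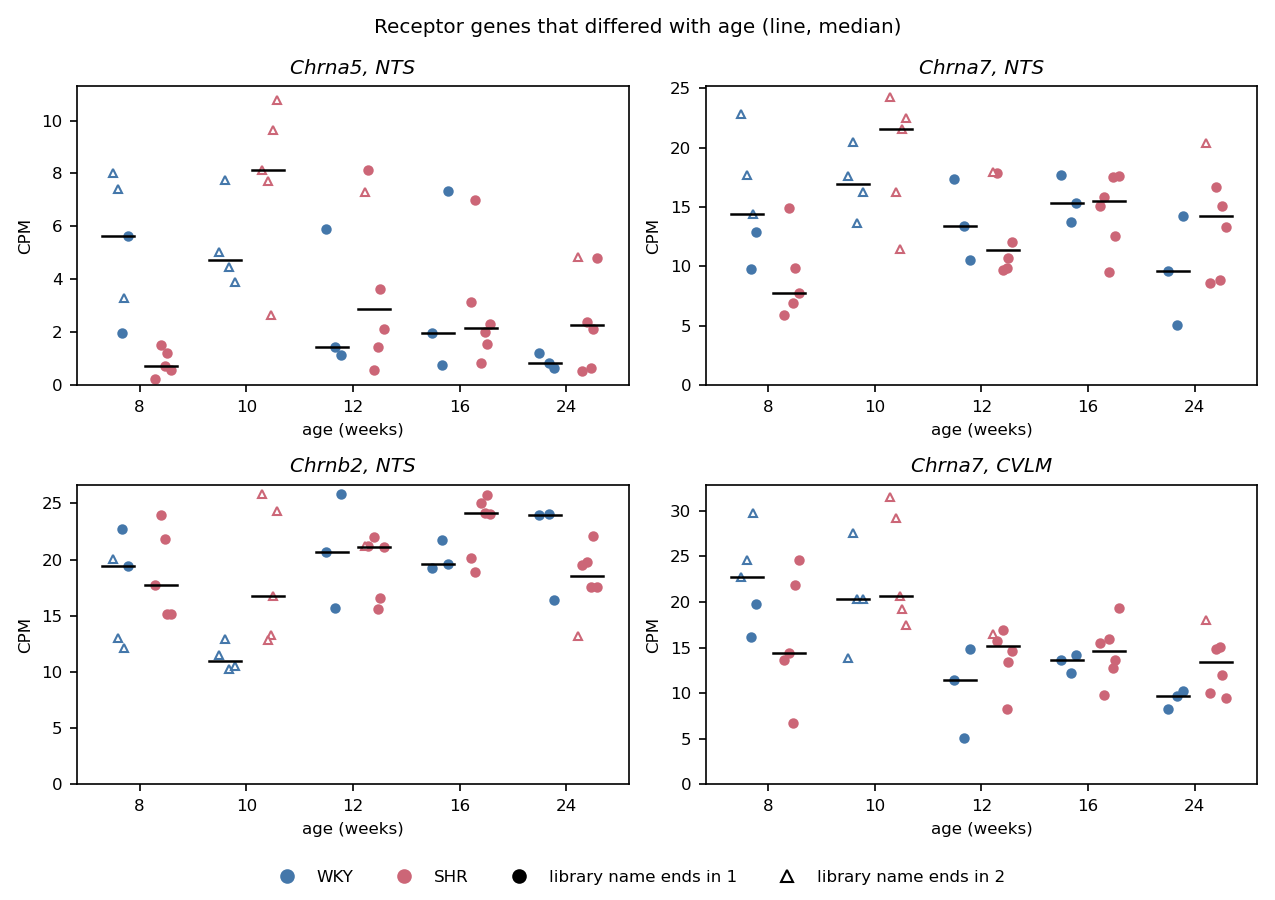
CPM (y axis) of Chrna5, Chrna7 and Chrnb2 in the NTS and Chrna7 in the CVLM, in each library by age in weeks (x axis), WKY in blue and SHR in red, with filled circles for library number 1, open triangles for number 2 and a line at each group's median. All 10 wk libraries carry the number 2, and Chrna5 in the NTS of SHR has its highest median there, 8.11 CPM.

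Age and library number move together. In the NTS the number-1 and number-2 libraries had median Chrna5 levels of 1.54 and 7.35 CPM, median Chrna7 levels of 12.7 and 17.8 CPM and median Chrnb2 levels of 20.4 and 13.1 CPM. In the CVLM the medians were 0.899 and 3.09 CPM for Chrna5 and 13.7 and 20.5 CPM for Chrna7. With the library number as a term, 0 of 46 age effects passed in edgeR. That of Chrna7 in the CVLM of WKY had an adjusted p of 0.38. The share of all genes called with this term is not reported here, so the 0 cannot be read as particular to the receptor genes. Chrnb4 in the RVLM of SHR had an unadjusted p of 0.0021 without the term and 0.0037 with it. Its adjusted p was 0.024 without the term and 0.34 with it (edgeR). The other called age effects had an unadjusted p of 0.0485 to 0.35 with the term (edgeR). Since every 10 wk library carries the number 2, the 10 wk age and the number can be separated only through the few number-2 libraries of other ages.

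From rat to rat, pairs of receptor genes ran together to differing degrees, and in different ways in each nucleus. After the group means were taken out, the 28 pairs of genes in the NTS had Pearson's r from −0.37 to 0.78 with a median of 0.20 over 46 libraries, and the medians in the CVLM and RVLM were 0.15 and 0.034. The genes of a pair share a library, its depth and its punch, and library number differs within the 8, 12 and 24 wk groups. Chrna3 and Chrnb4 had r = 0.78 in the NTS (Spearman's rho 0.69, and r = 0.70 without the 2 libraries farthest from the Chrna3 median), 0.52 in the CVLM (rho 0.53) and 0.034 in the RVLM (rho 0.022). Over the 30 groups of nucleus, strain and age, the same pair had r = 0.95, which follows the levels of the 3 nuclei. Chrnb2 and Chrm2 had r = 0.54 in the NTS (rho 0.53), 0.62 in the CVLM (rho 0.47) and 0.77 in the RVLM (rho 0.70), where r was 0.69 without the library that stood apart. Chrna5, which lies beside Chrna3 and Chrnb4 in the genome, had r = 0.70 with Chrna7 in the NTS (rho 0.71, r = 0.73 without the 2 farthest), against 0.22 with Chrna3 and 0.44 with Chrnb4. In the CVLM its r was −0.027 with Chrna7, 0.17 with Chrna3 and 0.057 with Chrnb4, so the order seen in the NTS was not seen there.

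The genes with the most similar pattern over the 30 groups were taken from the 13116 genes kept in all 3 nuclei. For Chrna3 they were Cpne8 (r = 0.954) and Bbs1 (r = 0.953), and for Chrnb4 they were Chrna3 (r = 0.95) and Mgat4a (r = 0.949). Chrna4 was most like Klhdc8a (r = 0.904) and Cyp2s1 (r = 0.902), and Chrnb2 most like Numa1 (r = 0.872) and Sall2 (r = 0.871). Chrna7 was most like Camk2d and Dlg3 (both r = 0.874), Chrm2 most like Exoc6b (r = 0.913) and Epb41 (r = 0.906), and Chrm3 most like Npy2r and Doc2a (both r = 0.943). These r values rest mainly on the levels in the 3 nuclei.

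The genes that make, carry and break down acetylcholine had an order of their own among the nuclei. Chat, the synthetic enzyme, was lower in the NTS than in the RVLM by 1.95 on the log2 scale (NTS minus RVLM −1.95, SE 0.10) and higher in the NTS than in the CVLM (1.80, SE 0.10, both called in edgeR). The vesicular transporter Slc18a3 followed it (−2.34 and 1.93), as did the choline transporter Slc5a7 (−1.89 and 1.44). All 5 genes of this list passed in both NTS comparisons and 4 of 5 in CVLM against RVLM, with medians of −1.89, 1.44 and −3.34 against medians over all genes of −0.006, 0.008 and −0.005. The nucleus with the most Chrna3 and Chrnb4 was thus not the one with the most Chat.

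Of 10 other nicotinic subunit genes, 9 were in the tables and 3 entered the fit over all nuclei. That fit kept genes that passed the filter on low values in any nucleus. A gene can thus enter it through the nucleus where it is highest, so these 3 genes and Chrm4 are described with no test. Chrna6, the α6 subunit gene known from catecholamine neurons, was highest in the CVLM (NTS minus CVLM −4.57, SE 0.25, and CVLM minus RVLM 2.03, SE 0.19, on the log2 scale). Chrna2, the α2 subunit gene, and Chrna1, the muscle α1 subunit gene, were highest in the RVLM (CVLM minus RVLM −1.58 and −2.13). Chrm4, the M4 receptor gene, was highest in the NTS (NTS minus RVLM 1.96, SE 0.14, and NTS minus CVLM 0.49, SE 0.13). For Chrm3, too, the NTS level exceeded the RVLM level.

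Over the whole list of other cholinergic genes, 38 listed and 37 in the tables, 24, 20 and 20 of 29 tested genes passed for NTS against RVLM, NTS against CVLM and CVLM against RVLM, where 72.7%, 65.9% and 54.0% of all genes were called. The 29 include genes that passed the filter on low values in only some of the nuclei, so these counts are a description. Between strains, the mean over ages was called in edgeR for 2 of 26 tested genes in the NTS (1 higher and 1 lower in SHR), 4 of 27 in the CVLM (4 higher) and 4 of 27 in the RVLM (3 higher and 1 lower), where 11.2%, 12.3% and 10.8% of all genes were called. The median differences were −0.054, 0.036 and 0.061 on the log2 scale against 0.010, −0.003 and 0.009 over all genes. Among 8 nicotinic receptor chaperones and binding proteins, 2 passed for NTS, 1 for CVLM and 3 for RVLM, beside the same shares of all genes. Lynx1, a membrane-tethered protein that binds nicotinic receptors, was higher in SHR in all 3 nuclei in edgeR's test, by 0.22 on the log2 scale for NTS (SE 0.055, adjusted p = 0.0046), 0.17 for CVLM (SE 0.038, adjusted p = 9.2e-04) and 0.16 for RVLM (SE 0.048, adjusted p = 0.020).

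Ric3, a chaperone of α7 receptors, was lower in SHR in the NTS (−0.25, SE 0.079, adjusted p = 0.027, edgeR). In the RVLM, Lypd1 (0.47, SE 0.13, adjusted p = 0.011, edgeR) and Lypd6 (0.71, SE 0.20, adjusted p = 0.016, edgeR), relatives of Lynx1, were higher in SHR. Lypd6 was the listed gene whose strain effect differed between nuclei (CVLM minus RVLM −0.92, SE 0.19, adjusted p = 0.0042, and NTS minus RVLM −0.75, SE 0.19, adjusted p = 0.017, edgeR). Chrna2 was lower in SHR in the RVLM (−0.84, SE 0.24, adjusted p = 0.013, edgeR), at medians of 1.57 CPM in WKY and 0.846 CPM in SHR, the same direction as Chrna4. In the CVLM, Chrna6 (0.44, SE 0.15, adjusted p = 0.044, edgeR) and Kcnq5 (0.31, SE 0.10, adjusted p = 0.041, edgeR), the gene of a potassium channel closed by Gq-coupled muscarinic receptors, were higher in SHR.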

How the data were processed

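Total RNA from tissue punches was sequenced by the study's provider. The authors mapped reads to the rat rn6 genome and estimated counts per gene with RSEM, and the deposited tables hold these expected counts for each library, 1 table per nucleus. Some values are not whole and were rounded; every value of the 9 receptor genes was whole. The annotation version is not given in the sources used here, and whether the study's batch adjustment had been applied to the tables is not stated. The 9 genes and the lists were chosen with earlier results of these data known. All 9 receptor genes are named, and from the other lists the genes that passed a test or are needed to read a count; likeness names the best 2 genes for each. The values of some listed genes are not reported here. Groups follow the sample labels; 2 CVLM libraries (replicate 5 of both strains) whose titles say 8 wk carry an age label of 10 wk and were kept at 8 wk.

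Genes with a regularized log value of at least 3.5 in any library were kept, 13793 for NTS, 13408 for CVLM and 13411 for RVLM. Each nucleus was fitted with 1 mean per strain and age in edgeR 4.0.16 (R 4.3.3, glmQLFit and glmQLFTest). One fit over all nuclei, on 14043 genes, had the rat as a block. Adjusted p is Benjamini-Hochberg over all genes of a fit, called under 0.05, and the standard error is the log2 difference divided by the root of F. DESeq2 1.42.0 and limma 3.58.1 were alternatives. The fits were tested on simulated data. No pair of libraries of the same nucleus, strain and age agreed within sampling noise (lowest chi-square per gene 5.07 over 270 pairs). Rats are separate animals, and p-values of the fits by nucleus measure the spread between them. In the fit over all nuclei the rat is a block, so its p-values rest on the spread within rats. Nucleus pairs from 1 rat had a median correlation of deviations of 0.23 (NTS and CVLM), 0.18 (NTS and RVLM) and 0.081 (CVLM and RVLM).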

Additional observations from a re-analysis of the deposited data

Results flagged for a closer look

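Single libraries lay far above the rest of their group, by Dixon's test at the 95% level, in 5 of 168 groups of receptor gene, nucleus, strain and age (2.98%, where chance gives about 5%). Chrnb4 in the CVLM of SHR at 8 wk read 3.43 CPM in replicate 2 against 0.758 to 1.04 CPM in the others, and the same library held the highest Chrna3 level of the CVLM, 10.95 CPM. Chrnb4 in the CVLM of SHR at 24 wk read 2.54 CPM in replicate 3 against 0.848 to 1.36 CPM. Chrna5 in the RVLM of SHR read 1.3 CPM at 12 wk in replicate 6, which carries library number 2, against 0.39 to 0.609 CPM, and 1.99 CPM at 16 wk in replicate 2 against 0.088 to 0.765 CPM. Chrm3 in the RVLM of WKY at 8 wk read 1.54 CPM in replicate 3, the library that stood apart from its region, against 0.455 to 0.686 CPM. The strain effect on Chrna4 differed between nuclei, by 0.73 on the log2 scale for NTS minus RVLM in the test of the difference itself.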

How the results depend on the processing

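Of 34 called values, 22 kept their direction and call under every setting run; of 497 values of the called results under other settings, 436 kept the call, 61 lost it and 0 changed sign. The 21 differences between nuclei were among the 22, and the number called ran from 21 to 22. The 21 include both Chrna5 differences against the RVLM, which are a description only. Strain differences at single ages, 2 in the report, numbered 4 in DESeq2, 1 with a library number term, 1 without the number-2 libraries outside 10 wk (chosen after seeing the data), 1 with each age fitted alone, and 0 to 4 when a replicate number of a strain was left out. Mean strain differences, 4 in the report, numbered 1 with 8 wk and 2 with 10 wk left out of the mean, and 1 to 5 with a replicate number left out. Age effects, 6 in the report, numbered 0 with a library number term and 2 to 8 with a replicate number left out. The share of all genes called with that term is not reported here. Differences of the strain effect between nuclei numbered 1 to 2. The test of a strain effect that changes with age called 0 under each setting, with an adjusted p for 16 of the 23 tests in DESeq2.

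With the replicate number as a block, mean strain differences numbered 2: Chrnb4 (adjusted p = 0.085) and Chrna4 (adjusted p = 0.058) in the RVLM lost the call. The labels do not say that rats of the strains with the same number belong together, and the numbers were not taken as pairs because a correlation of deviations over 0.1 was found in 32 of 54 pairs and not in each (range −0.33 to 0.55). Every pair passed it in the NTS at 12 and 24 wk and in the CVLM at 10 and 12 wk, and 0 of 5 did in the RVLM at 8 wk. Chrnb4 in the RVLM was also lost with no filter on low values (adjusted p = 0.070) and with the library number term (adjusted p = 0.053).

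In the fit over all nuclei, leave-outs were run for replicates 1, 2 and 3 of each strain with the dispersion trend of the full fit; replicates 4, 5 and 6 were not run. Chrna5, Chrnb4 and Chrm3 in the RVLM rest on median counts of 5, 19.5 and 8.5 a library, which limits the precision there.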
